A study of Mus musculus with 6 samples.

Results

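The genes described here are 7 markers of peripheral nerve and its glia, the Schwann cells: *Sox10*, *Mbp*, *Pmp22*, *Prx*, *S100b*, *Ednrb* and *Gfra1*. They were chosen by name, as the rows of the deposited count table that carry these symbols, and all 7 of the 7 were found among its 21878 genes. The table came from RNA-seq of whole thyroid glands of female mice at 12 weeks, with 3 *Thy-Tet1*+/+ libraries and 3 libraries labelled *Thy-Tet1*-/-. The study made the *Thy-Tet1*-/- mice with floxed *Tet1* alleles and a Cre recombinase that acts in the follicular epithelium, so Schwann cells, nerve fibres and the other cells of the gland are not its targets. Its controls were wild-type littermates, whether they carried the Cre is not given, and no treatment is named for either group. TET1 is an enzyme that oxidises methylated cytosine in DNA, and the study compared the groups to find what its loss changes in the thyroid. All mice were female, and which animals shared a litter is not given.

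Peripheral axons are ensheathed by Schwann cells, which derive from the neural crest. A myelinating Schwann cell wraps a single axon in compact myelin, whose membranes are held together by proteins such as MBP and PMP22, while a non-myelinating Schwann cell holds several thin axons in shallow grooves. Thyroid follicles and vessels are supplied by thin autonomic and sensory fibres that run with the arteries, and nerve trunks such as the recurrent laryngeal nerve pass close to the gland. None of the 7 genes is private to nerve: *Pmp22*, *Ednrb*, *S100b*, *Mbp* and *Gfra1* are also transcribed in other cells, such as epithelium, vessels, fat or immune cells. In RNA of a whole gland, fewer cells of a type and less RNA per cell cannot be told apart.

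The libraries held 8867683 to 19950898 counts each, and 14143 genes passed the filter on low counts. Counts are given as CPM, read counts scaled to the library's total after TMM, a correction for differences in composition. Without that correction 3 counts, the limit that a count of 0 allows for counting error, were worth 0.150 to 0.338 CPM of the unscaled totals. *Tet1* itself went against the labels, with 5.69, 3.79 and 3.44 CPM in the *Thy-Tet1*+/+ libraries and 9.36, 9.59 and 12.2 CPM in the libraries labelled *Thy-Tet1*-/- (log2 fold change 1.28 ± 0.27 SE, edgeR adjusted p = 0.101), so that every direction given here is from the first set of labels to the second. Whole-gene counts can keep reads from exons outside a floxed interval, and which exons were deleted is not tested by them. The thyroid label fitted the follicular markers, since *Tg*, the thyroglobulin gene, took 21.2% to 29.4% of all counts. The protocol text in the labels speaks of retinas, but 6 photoreceptor genes summed to 0.830 to 1.57 CPM over the 6 libraries. Other tissues varied strongly between single glands, most of all skeletal muscle (19.1 to 8357 CPM summed over 10 genes), parathyroid (89.1 to 12910 CPM over 3 genes) and thymocytes (8.35 to 662 CPM over 10 genes).

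Which cells made the transcripts of the 7 genes was not tested, and the levels of the others beside *Sox10* do not show it. Some Schwann cell genes outside the 7 were present in every library, among them *Cdh19*, a cadherin of the Schwann cell lineage (2.44 to 8.76 CPM), and *Scn7a* (14.7 to 38.6 CPM). Others were not. *Cldn19* and *Pou3f1* were at 0 in replicate 1 labelled *Thy-Tet1*-/-, and *Pmp2* was at 0 in *Thy-Tet1*+/+ replicate 1. Markers of oligodendrocytes, the myelinating glia of the brain, were at 0 in 5 of the 6 libraries and summed to 0.0544 CPM in the sixth. Melanocytes are the other common neural crest cell that uses *Sox10* and *Ednrb*, and their 5 markers summed to 1.07 to 2.49 CPM. *Mbp*, *Pmp22*, *S100b* and *Ednrb* were each far above *Sox10* per unit of transcript length, the transcription factor that defines the lineage. On the scale of CPM per kilobase of exons, the *Thy-Tet1*+/+ means were 93.0 for *Pmp22*, 49.3 for *S100b*, 12.8 for *Mbp*, 10.9 for *Ednrb*, 1.54 for *Prx*, 0.528 for *Gfra1* and 0.407 for *Sox10*. In the libraries labelled *Thy-Tet1*-/- the same means were 68.7, 44.8, 6.42, 6.01, 2.17, 0.920 and 0.794, in the same order of genes. The neighbours *Mbp* and *Ednrb*, and the neighbours *Gfra1* and *Sox10*, were closer to each other than their own spread between libraries, while the other neighbours in this order did not overlap between the libraries of either set.

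CpG dinucleotides are the bases on which TET1 acts, and no methylation was measured in these libraries, so the sequences before the start sites are shown to give the density of such bases and nothing more. RefSeq windows of 250 bases were at hand for 5 of the 7 genes, on GRCm38.p6, the assembly that mm10 names. *Ednrb* is shown as a gene that was lower, *S100b* as the gene that differed least, and *Pmp22* because it has alternative starts of unlike CpG density that counts per gene do not separate. Each is written 5′ to 3′ on the strand of the gene and ends at the base before the start, with CG in capitals.
Ednrb, chr14:103843702-103843951, minus strand: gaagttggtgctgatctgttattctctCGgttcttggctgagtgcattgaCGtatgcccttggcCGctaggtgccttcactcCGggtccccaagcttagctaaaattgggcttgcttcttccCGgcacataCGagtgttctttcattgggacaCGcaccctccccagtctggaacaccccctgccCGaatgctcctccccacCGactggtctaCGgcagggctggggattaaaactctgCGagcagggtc
S100b, chr10:76253586-76253835, plus strand: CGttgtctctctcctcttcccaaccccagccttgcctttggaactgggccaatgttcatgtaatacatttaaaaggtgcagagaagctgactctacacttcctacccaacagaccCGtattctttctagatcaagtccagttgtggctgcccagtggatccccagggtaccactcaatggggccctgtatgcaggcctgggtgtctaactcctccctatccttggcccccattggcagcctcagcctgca
Pmp22, first start, chr11:63128732-63128981, plus strand: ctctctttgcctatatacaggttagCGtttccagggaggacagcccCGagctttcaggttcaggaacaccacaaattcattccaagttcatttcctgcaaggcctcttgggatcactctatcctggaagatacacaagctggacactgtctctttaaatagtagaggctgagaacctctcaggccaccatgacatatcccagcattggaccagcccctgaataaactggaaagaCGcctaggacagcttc
Pmp22, second start, chr11:63131207-63131456, plus strand: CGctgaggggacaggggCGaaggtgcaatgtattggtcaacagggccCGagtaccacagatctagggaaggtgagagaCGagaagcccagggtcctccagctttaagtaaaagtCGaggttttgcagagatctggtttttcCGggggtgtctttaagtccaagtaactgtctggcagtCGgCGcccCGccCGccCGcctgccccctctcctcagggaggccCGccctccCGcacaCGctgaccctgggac
None of the 4 windows touches an exon in GENCODE M21. The *S100b* window and the first *Pmp22* window lie outside genes, and the *Ednrb* window and the second *Pmp22* window lie in introns of longer transcripts of these genes. The *Ednrb* window holds 11 CpG, against a median of 6 over all 32851 starts in the table, whose quartiles were 2 and 16. The *S100b* window holds 2. *Pmp22* runs from 3 CpG at its first start to 14 at the next starts and 27 at its last, and 92.4% of all starts have no more CpG than that last one. The *Prx* window has 2 CpG and the *Gfra1* window 10. The 6-letter words ACAAAG and ACAATG, which SOX proteins are known to bind, were searched for on both strands, cannot overlap on a strand, and were in 0 of the 8 windows of these genes and in 25.2% of all windows. That says only that these letters are not in these windows. *Sox10* and *Mbp* had no entry.

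Of the 7 genes, *Mbp* and *Ednrb* were lower in the libraries labelled *Thy-Tet1*-/-, at 0.503 and 0.551 times the *Thy-Tet1*+/+ level, and 0 were higher. These calls use the limits the study set, a change of over 1.5-fold in either direction at an unadjusted p under 0.05, here from edgeR's quasi-likelihood test. At these limits 3.66% of all tested genes were lower and 5.54% were higher. The 2 calls among the 7 make 28.6%, against 9.20% of all genes in both directions. That share rests on a list too short to read more from, and chosen with earlier results of these data known. None of the 7 had a Benjamini-Hochberg adjusted p under 0.05 in edgeR, which 0.113% of all genes had. The smallest adjusted p among them was 0.0832 by edgeR, and 2 of the 7 had an unadjusted p under 0.05, as 18.9% of all genes did. DESeq2 gave adjusted p under 0.05 for 2 of the 6 genes to which it assigned one, again *Mbp* and *Ednrb*, and for 9.54% of all such genes. The groups did not overlap for 3 genes, *Mbp* and *Ednrb* (lower) and *Sox10* (higher), where 14.3% of all genes were lower and 12.5% higher without overlap. The median log2 fold change of the 7 was -0.14, with 3 positive and 4 negative values, and that of all genes 0.00. The median size without sign was 0.81 for the 7, which is the value of *Gfra1* (SE 0.52), and 0.26 for all genes. The 2 medians were not matched for level or count. Single genes were also compared by a two-sided exact permutation test over the 6 libraries, which for 3 against 3 cannot give a p below 0.10, the value reached by *Sox10*, *Mbp* and *Ednrb*.

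**Figure D1:**
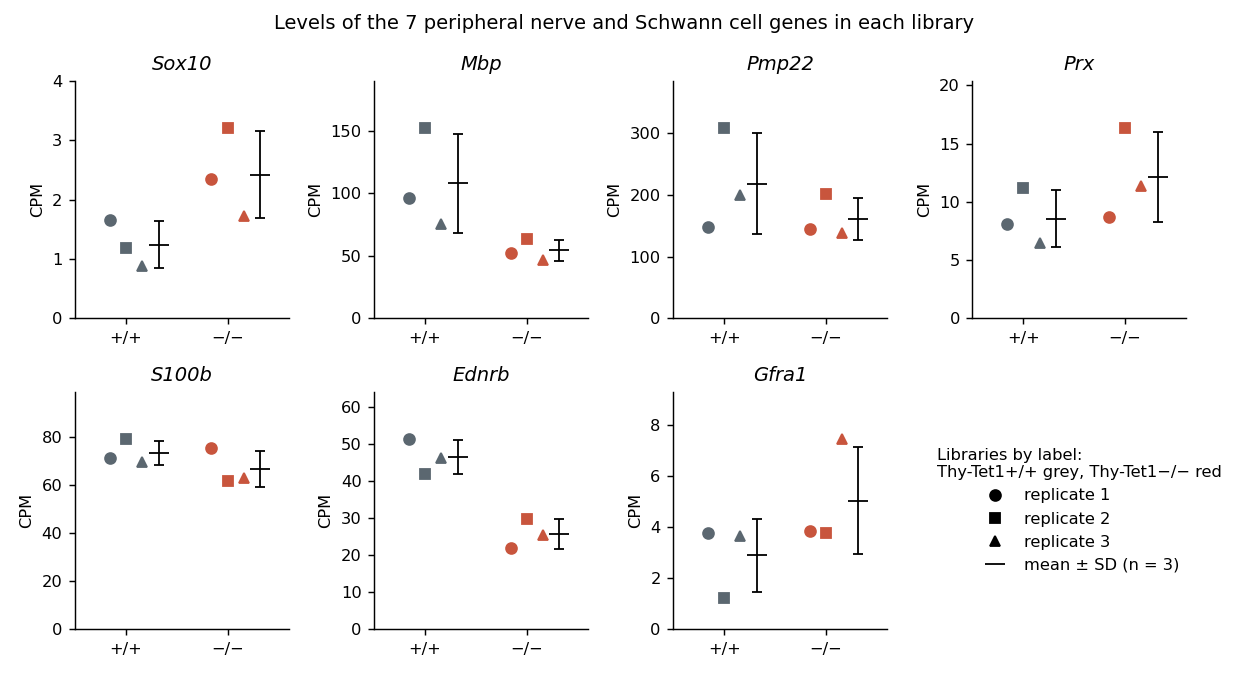
Level of each of the 7 genes in CPM (vertical axis, from 0) in the 3 *Thy-Tet1*+/+ libraries (grey) and the 3 libraries labelled *Thy-Tet1*-/- (red), with the symbol giving the replicate number and the bar the mean ± SD (n = 3). *Mbp* and *Ednrb* are lower and *Sox10* higher without overlap of the groups, and *Pmp22*, *Prx*, *S100b* and *Gfra1* overlap.

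*Sox10* encodes the HMG-box factor that specifies the glia of the neural crest and that Schwann cells keep for life, and lies at chr15:79154908-79165240 on the minus strand. Its levels in *Thy-Tet1*+/+ replicates 1 to 3 were 1.66, 1.18 and 0.887 CPM, and in the libraries labelled *Thy-Tet1*-/- 2.34, 3.20 and 1.73 CPM. All libraries of the second set were above all of the first, although the nearest pair, 1.66 and 1.73 CPM, was set apart by far less than counting error. Those values rest on 14 and 34 counts, with exact 95% Poisson intervals of 0.907 to 2.78 and 1.20 to 2.41 CPM. The means were 1.24 ± 0.390 and 2.42 ± 0.739 CPM (SD, n = 3), a ratio of 1.95. The log2 fold change of 0.98 ± 0.42 (SE) had an unadjusted p of 0.0525 and a Benjamini-Hochberg adjusted p = 0.270 by edgeR's quasi-likelihood test, so *Sox10* lay just outside the limits. It came inside them in 8 of the 16 alternative settings, for example with a log2 fold change of 1.22 without *Thy-Tet1*+/+ replicate 1 and of 1.17 without replicate 3 labelled *Thy-Tet1*-/-. Without any other single library it was outside them, at 0.73 to 0.98.

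Of the other Schwann cell transcription factors, *Pou3f1* was too low to test and 0 of the 3 tested genes met the limits in either direction. *Egr2*, the factor that drives the myelin genes, had means of 1.61 ± 1.11 and 1.68 ± 0.841 CPM (SD, n = 3) and a log2 fold change of 0.04 ± 0.60 (SE). *Tfap2a*, an AP-2 factor of early Schwann cell precursors, had a log2 fold change of 0.20 ± 0.52. *Foxd3*, a factor of the neural crest, had 0.446 ± 0.101 and 0.856 ± 0.203 CPM (SD, n = 3) without overlap. These values rest on few counts, 3, 8 and 10 against 20, 13 and 14. Its log2 fold change was 0.90 ± 0.45 (SE, edgeR adjusted p = 0.330). The summed level of the 5 factors was 3.05 to 5.13 CPM in the *Thy-Tet1*+/+ libraries and 5.61 to 6.22 CPM in the others, without overlap.

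*Mbp* encodes myelin basic protein, which seals the inner faces of the compact myelin membrane, and lies at chr18:82475146-82585637 on the plus strand. The *Thy-Tet1*+/+ libraries had 96.4, 152 and 75.7 CPM, and those labelled *Thy-Tet1*-/- had 52.4, 63.8 and 47.0 CPM. The highest library of the second set was below the lowest of the first, and *Thy-Tet1*+/+ replicate 2 stood above all others. The means of 108 ± 39.7 and 54.4 ± 8.60 CPM (SD, n = 3) had a ratio of 0.503. The log2 fold change was -0.99 ± 0.27 (SE), with an unadjusted p of 0.00810 and a Benjamini-Hochberg adjusted p = 0.134 by edgeR's quasi-likelihood test, the latter of which ran from 0.0101 (DESeq2) to 0.395 over the 16 alternatives. Without *Thy-Tet1*+/+ replicate 2 the log2 fold change was -0.66, still inside the limits. Scaled to 10 epithelial genes, a setting that moved the median of all genes up by 0.44, it was -0.50 and outside them. The gene also holds the longer golli transcripts, which are used outside myelin, and counts per gene do not separate them.

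*Pmp22*, whose tetraspan protein sits in compact myelin and also in epithelial junctions, lies at chr11:63128982-63159547 on the plus strand. It had 148, 308 and 200 CPM in the *Thy-Tet1*+/+ libraries and 145, 201 and 139 CPM in the others. The groups overlapped, and the spread came mostly from *Thy-Tet1*+/+ replicate 2, the library that was also highest for *Mbp*. The means were 219 ± 81.4 and 162 ± 33.9 CPM (SD, n = 3), and the log2 fold change of -0.44 ± 0.29 (SE, edgeR adjusted p = 0.453) did not meet the limits and turned to 0.07 when scaled to epithelial genes. Single libraries decided its size, since it was -0.65 without *Thy-Tet1*+/+ replicate 1, inside the limits, and -0.11 without *Thy-Tet1*+/+ replicate 2.

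*Mal*, a raft protein of myelin and of epithelial apical membranes, had means of 151 ± 24.8 and 112 ± 19.1 CPM (SD, n = 3) and a log2 fold change of -0.43 ± 0.18 (SE, edgeR adjusted p = 0.260), under the size limit. Of the 5 tested genes of compact myelin, *Mbp* alone met the limits. *Pmp2* was too low to test.

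*Prx* encodes periaxin, a scaffold that ties the outer myelin membrane to the basal lamina, and lies at chr7:27499324-27520214 on the plus strand. It had 8.06, 11.2 and 6.43 CPM in the *Thy-Tet1*+/+ libraries and 8.66, 16.3 and 11.4 CPM in the others. The groups overlapped, with means of 8.57 ± 2.44 and 12.1 ± 3.86 CPM (SD, n = 3) and a log2 fold change of 0.50 ± 0.32 (SE, edgeR adjusted p = 0.443). Scaled to the 10 epithelial genes it was 0.97 and inside the limits, and it was 0.21 without replicate 2 labelled *Thy-Tet1*-/- and 0.32 without *Thy-Tet1*+/+ replicate 3. In 300 bp its exons overlap *Gm15541*, an antisense gene that the table does not list, and the sources used here do not state whether counting used strand.

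Of the 8 other tested genes for non-compact myelin and Schwann cell contacts, 1 was higher and 1 lower. *Gjb1*, the connexin of myelin incisures and also of gland epithelium, had 332, 269 and 341 CPM in the *Thy-Tet1*+/+ libraries and 223, 170 and 156 CPM in the others, a log2 fold change of -0.78 ± 0.18 (SE, edgeR adjusted p = 0.108). On the scale of CPM per kilobase its *Thy-Tet1*+/+ mean was 184, above each of the 7 genes. *Gldn*, gliomedin of the node of Ranvier, had 0.237, 0.588 and 0.554 CPM in the *Thy-Tet1*+/+ libraries and 4.14, 2.55 and 0.609 CPM in the others. The sets did not overlap, but replicate 3 labelled *Thy-Tet1*-/- was level with the controls, and the log2 fold change of 2.32 ± 0.76 (SE, edgeR adjusted p = 0.180) was 1.67 and outside the limits without replicate 1 of that set and 2.07 and outside them without *Thy-Tet1*+/+ replicate 1. *Cnp*, an enzyme of non-compact myelin whose exons share 154 bp with *Dnajc7*, had a log2 fold change of -0.21 ± 0.20 (SE).

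*S100b* encodes a calcium-binding protein that is a standard stain for Schwann cells, and lies at chr10:76253853-76261159 on the plus strand. It had 71.0, 79.0 and 69.6 CPM in the *Thy-Tet1*+/+ libraries and 75.4, 61.5 and 62.8 CPM in the others. These were the least variable values of the 7 genes, with means of 73.2 ± 5.07 and 66.5 ± 7.69 CPM (SD, n = 3). The log2 fold change of -0.14 ± 0.12 (SE, unadjusted p of 0.293 by edgeR) did not meet the limits, and its sign turned when scaled to epithelial genes (0.31) or to library totals (0.05).

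Immature and non-myelinating Schwann cells are marked by several genes outside the 7, of which 7 could be tested, 2 were higher and 0 lower. *Cdh19* had 4.03, 3.26 and 2.44 CPM in the *Thy-Tet1*+/+ libraries and 8.76, 7.64 and 6.25 CPM in the others. The sets were well apart, with means of 3.24 ± 0.796 and 7.55 ± 1.26 CPM (SD, n = 3), and the log2 fold change of 1.23 ± 0.29 (SE, edgeR adjusted p = 0.113) stayed inside the limits in all 16 alternatives. *Scn7a*, a sodium channel of non-myelinating Schwann cells, had 31.2, 20.0 and 14.7 CPM in the *Thy-Tet1*+/+ libraries and 38.6, 37.8 and 30.6 CPM in the others. Its log2 fold change of 0.71 ± 0.27 (SE, edgeR adjusted p = 0.235) left the limits when *Thy-Tet1*+/+ replicate 2 (0.65) or 3 (0.49), or replicate 1 (0.63) or 2 (0.67) labelled *Thy-Tet1*-/-, was left out. *L1cam*, an adhesion molecule of axons and Schwann cells whose exons share 100 bp with *Arhgap4*, had a log2 fold change of -0.24 ± 0.41 (SE).

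*Ednrb* encodes the endothelin receptor that neural crest cells need to reach their targets and that Schwann cells, melanocytes and endothelium keep, and lies at chr14:103814625-103844402 on the minus strand. It had 51.3, 42.0 and 46.1 CPM in the *Thy-Tet1*+/+ libraries and 21.8, 29.7 and 25.4 CPM in the others. The sets were far apart and each was narrow, with means of 46.5 ± 4.68 and 25.6 ± 3.98 CPM (SD, n = 3) and a ratio of 0.551. The log2 fold change of -0.86 ± 0.15 (SE) had the smallest p of the 7 genes, 8.83e-04 unadjusted, and a Benjamini-Hochberg adjusted p = 0.0832 by edgeR's quasi-likelihood test, the latter of which ran from 2.06e-04 (DESeq2) to 0.343 over the alternatives. It stayed inside the limits when any library was left out (-0.98 to -0.77). Scaled to the 10 epithelial genes it was -0.44 and outside them.

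The rest of the endothelin system held 4 tested genes, and 0 met the limits. *Ece1*, which cuts endothelin precursors to the active peptide, had means of 360 ± 94.5 and 265 ± 18.6 CPM (SD, n = 3), with no overlap and a log2 fold change of -0.44 ± 0.20 (SE, edgeR adjusted p = 0.285). *Edn1*, the vascular ligand, had a log2 fold change of -0.50 ± 0.40. The receptor *Ednra*, used mostly by smooth muscle, had 7.85 ± 2.39 and 8.52 ± 1.15 CPM (SD, n = 3) and a log2 fold change of 0.11 ± 0.27 (SE). Endothelium is another cell type that uses *Ednrb*, and its 10 genes summed to 710 to 878 CPM in the *Thy-Tet1*+/+ libraries and 719 to 1039 CPM in the others, with 1 of 10 higher and 0 lower at the limits.

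*Gfra1* encodes the co-receptor that binds GDNF and presents it to the receptor tyrosine kinase RET, and lies at chr19:58235604-58455909 on the minus strand. It had 3.79, 1.23 and 3.66 CPM in the *Thy-Tet1*+/+ libraries and 3.86, 3.79 and 7.46 CPM in the others, from 23 to 147 counts. One control, replicate 2, was low, and replicate 3 labelled *Thy-Tet1*-/- was high, while the other 4 libraries lay within 3.66 to 3.86 CPM. The means were 2.89 ± 1.44 and 5.04 ± 2.10 CPM (SD, n = 3), and the log2 fold change of 0.81 ± 0.52 (SE, edgeR adjusted p = 0.443) did not meet the limits. These 2 libraries set its size, since it was 0.44 without the first and 0.42 without the second. Its exons share 416 bp with *Gm16277*, an antisense gene that the table does not list.

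*Ret*, the receptor that *Gfra1* serves, went the other way. It had 79.8, 104 and 79.1 CPM in the *Thy-Tet1*+/+ libraries and 50.5, 40.8 and 29.4 CPM in the others. The sets were far apart, with means of 87.6 ± 14.2 and 40.3 ± 10.5 CPM (SD, n = 3), and the log2 fold change of -1.12 ± 0.22 (SE, edgeR adjusted p = 0.0965) stayed inside the limits in all 16 alternatives. RET is also a receptor of thyroid C cells, whose 9 markers summed to 5728 to 21375 CPM in the *Thy-Tet1*+/+ libraries and 10901 to 18115 CPM in the others, with 0 of 9 at the limits in either direction and 9 positive log2 fold changes. *Chga*, which other endocrine cells also use, took 1.78% to 86.1% of that sum, and the 8 others summed to 2751 to 5626 and 4340 to 5801 CPM. *Artn*, the ligand artemin of sensory and sympathetic neurons, had 4.86, 11.1 and 12.8 CPM in the *Thy-Tet1*+/+ libraries and 19.2, 15.3 and 21.6 CPM in the others, a log2 fold change of 0.95 ± 0.35 (SE, edgeR adjusted p = 0.218). It left the limits without replicate 1 (0.91) or replicate 3 (0.83) labelled *Thy-Tet1*-/-. *Gdnf* itself was too low to test, at 0 in 3 libraries and at 0.305 CPM in the highest.

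Neuregulin is the axonal signal that sets Schwann cell number and myelin thickness, and its receptors are ERBB2 and ERBB3. *Nrg1* had 6.16, 6.73 and 4.99 CPM in the *Thy-Tet1*+/+ libraries and 7.84, 8.58 and 16.3 CPM in the others, without overlap. Its log2 fold change of 0.87 ± 0.34 (SE, edgeR adjusted p = 0.232) was carried in part by replicate 3 labelled *Thy-Tet1*-/-, without which it was 0.45 and outside the limits, and it left the limits in 8 of the 16 alternatives, with 0.90, 0.97 and 0.76 without *Thy-Tet1*+/+ replicates 1, 2 and 3. *Erbb3* had a log2 fold change of 0.52 ± 0.21 (SE, edgeR adjusted p = 0.243) and *Erbb2* of 0.31 ± 0.11 (SE, edgeR adjusted p = 0.193), both under the size limit. Both receptors are also epithelial. Their levels summed with those of *Nrg1*, *Adgrg6* and *Dhh* were 126 to 167 CPM in the *Thy-Tet1*+/+ libraries and 182 to 223 CPM in the others. Most of that sum was *Erbb3* (72.1 to 146 CPM) and *Erbb2* (41.0 to 58.0 CPM). *Adgrg6* and *Dhh* had log2 fold changes of 0.24 ± 0.40 and -0.05 ± 0.38 (SE).

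The cell bodies of most fibres lie outside the gland. The axon and neuron genes summed to 13.1 to 20.7 CPM in the *Thy-Tet1*+/+ libraries and 14.0 to 14.8 CPM in the others. *Uchl1* had 4.87 to 12.3 CPM of this. *Nefm*, which did not pass the filter, had 5.28 CPM in replicate 3 labelled *Thy-Tet1*-/- and at most 0.711 CPM elsewhere. Of 10 genes for axons and neurons, 5 could be tested and 0 met the limits. *Uchl1*, a ubiquitin hydrolase of neurons, had a log2 fold change of -0.36 ± 0.31 (SE) and *Nefh*, a neurofilament, of -0.13 ± 0.47. *Chat*, the gene of cholinergic neurons, was at 0 in all 6 libraries, which allows up to 0.338 CPM of the unscaled total in the shallowest. *Th* and *Dbh* of sympathetic neurons were at no more than 0.118 CPM.

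Over the whole nerve list of 57 genes in 8 roles, 47 were tested, 5 were higher and 4 lower at the limits. That is 19.1% in both directions, against 9.20% of all genes tested. The list was chosen with earlier results of these data known, so such shares only describe it. Without the 7 genes it was 40 tested of 50, with 5 higher (*Gldn*, *Scn7a*, *Cdh19*, *Artn* and *Nrg1*) and 2 lower (*Gjb1* and *Ret*), or 17.5%. None had a Benjamini-Hochberg adjusted p under 0.05 by edgeR, 12 of the 47 had an unadjusted p under 0.05 (18.9% of all genes), and DESeq2 gave 5 adjusted calls among the 33 genes with such a value (9.54% of all genes). The median log2 fold change of the 47 was 0.03. The genes at the limits did not share a direction over the list, and in 2 of the 8 roles they lay on opposite sides, *Gldn* and *Gjb1* in one and *Artn* and *Ret* in the other.

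**Figure D2:**
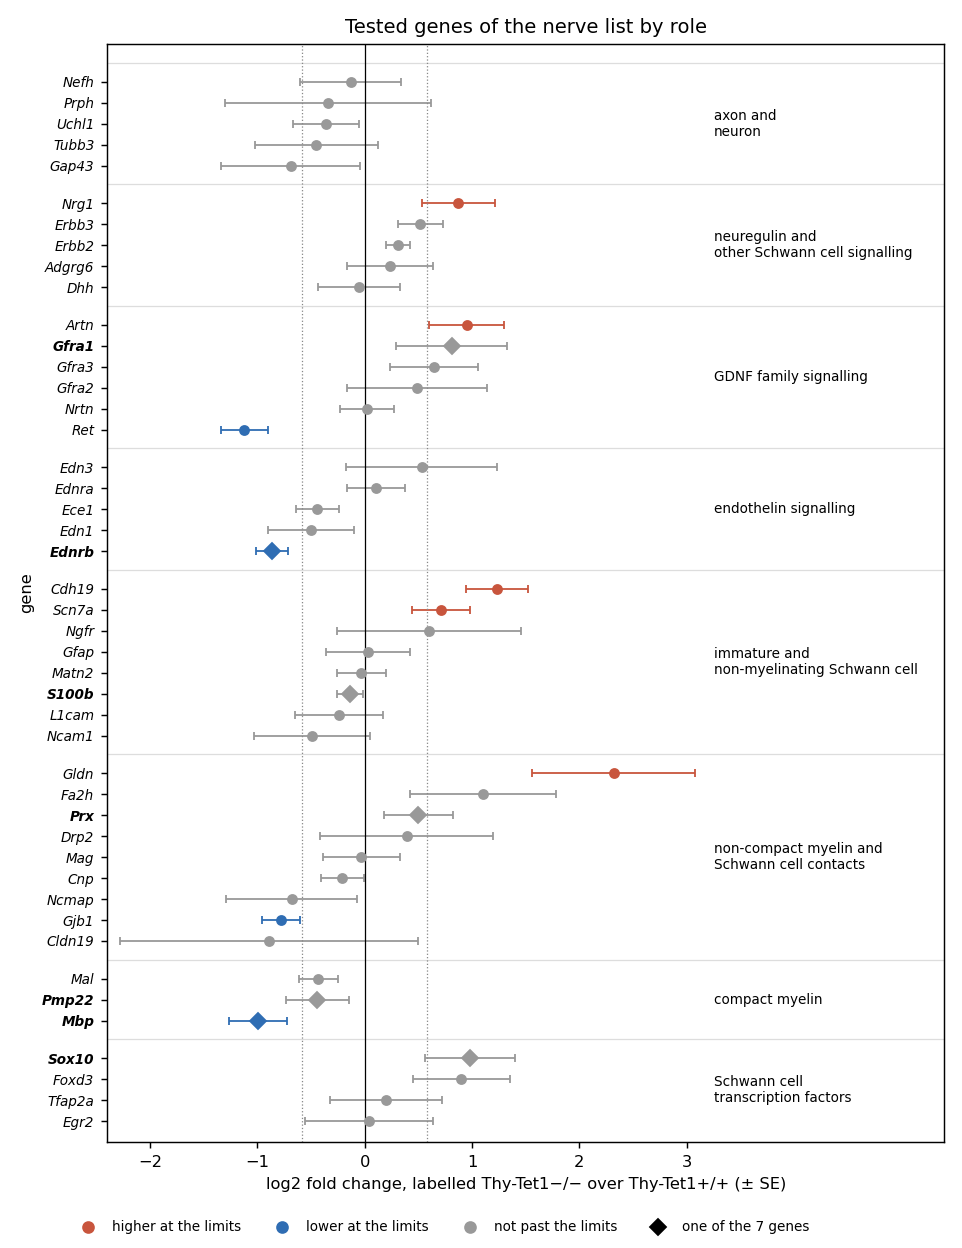
Log2 fold change (horizontal axis) of tested genes of the nerve list, by role, from *Thy-Tet1*+/+ to the libraries labelled *Thy-Tet1*-/-, with bars of 1 SE, diamonds for the 7 genes and dotted lines at the size limit of 1.5-fold. Red and blue mark the 5 higher and 4 lower genes at the limits, which lie on both sides of 0 in 2 of the 8 roles.

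The levels of the 7 genes moved together over the glands only in part. Over the 6 libraries, *Mbp* had Pearson's r of log2 CPM of 0.78 with *Pmp22*, 0.76 with *Ednrb* and 0.63 with *S100b*. Without *Mbp* these pairs were weaker, at 0.42 for *Pmp22* and *Ednrb*, 0.40 for *Pmp22* and *S100b*, and 0.27 for *S100b* and *Ednrb*. *Sox10* had 0.69 with *Prx* but -0.50 with *Mbp* and -0.64 with *Ednrb*. *Gfra1* had -0.89 with *Mbp*, -0.88 with *Pmp22*, -0.73 with *S100b* and -0.45 with *Ednrb*. These are descriptions over 6 points that hold 2 groups and share library depth and tissue makeup.

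**Figure D3:**
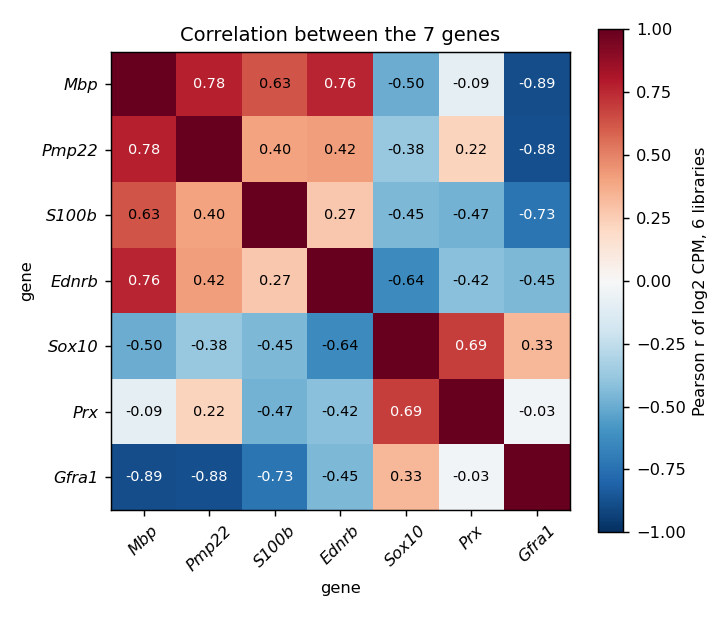
Pearson's r of log2 CPM between each pair of the 7 genes over the 6 libraries, with red for positive and blue for negative values. *Mbp*, *Pmp22*, *S100b* and *Ednrb* are positive with one another, from 0.27 for *S100b* and *Ednrb* to 0.78 for *Mbp* and *Pmp22*. *Gfra1* is negative with each of them, from -0.45 with *Ednrb* to -0.89 with *Mbp*. *Sox10* pairs with *Prx*.

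Within the nerve list, a ranking that can return only genes of that list, *Sox10* was closest to *Scn7a* (r = 0.937), *Cdh19* (0.921) and *Gfra3* (0.855). *Adgrg6* was the closest to *Prx* (0.792). *Mbp* was closest to *Ece1* (0.949), *Ret* (0.890) and *Pmp22* (0.781), and *Ednrb* to *Gjb1* (0.813), *Ret* (0.787) and *Mbp* (0.759). *Ece1* was also the closest to *Pmp22* (0.804) and *S100b* (0.775), and *Ngfr* the closest to *Gfra1* (0.733). Over all tested genes the most alike were *Zcchc14*, *Fam212b* and *Zfp229* for *Sox10* (0.986 to 0.988), *Bud13* and *Cd82* for *Mbp* (0.996 to 0.997), and *Asah1*, *Fig4* and *Ephx1* for *Pmp22* (0.974 to 0.993). They were *Il33*, *Hmcn2* and *Mipol1* for *Prx* (0.960 to 0.983), *Wisp2*, *Gm3325* and *Oas1a* for *S100b* (0.957 to 0.977), *Atg5*, *Pdcl* and *1810026J23Rik* for *Ednrb* (0.992 to 0.997), and *Cdc23*, *Hexim2* and *Xpo1* for *Gfra1* (0.976 to 0.987). None of these is a standard Schwann cell marker, and they are the highest of 14143 values over 6 libraries, given as descriptions.

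Other cell types moved with some of these genes. The 10 epithelium genes, led by *Epcam*, summed to 2102 to 2957 CPM in the *Thy-Tet1*+/+ libraries and to 1624 to 1730 CPM in the others, with 4 of 10 lower at the limits, and over the 6 libraries their score, the mean log2 CPM of the list, had r = 0.85 with *Mbp* and 0.86 with *Pmp22*. The 10 follicular genes summed to 254686 to 315995 and to 192663 to 238339 CPM, with 2 of 10 lower and 0 higher, and their score had r = 0.86 with *Ednrb*. *Tg* made 99.0% to 99.2% of that sum. The 9 others summed to 2177 to 2872 and to 1912 to 2158 CPM, and the 10 genes were split, with 5 positive and 5 negative log2 fold changes and with 1 higher and 4 lower without overlap. *Ednrb* also had r = 0.82 with the score of the smooth muscle and pericyte genes and 0.72 with that of skeletal muscle, against -0.51 with that of endothelium. The part of epithelium in the lower *Mbp* and *Ednrb* was not tested, since the lists, the genes and the labels moved together. The part of the other cell types was not tested either.

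*Sox10* ran with other lists. Its r was 0.94 with the score of 9 C cell genes, led by *Chga*, and 0.88 with that of 9 adipocyte genes, led by *Fabp4*, which summed to 191 to 640 CPM in the *Thy-Tet1*+/+ libraries and 447 to 2047 CPM in the others, with 3 of 9 higher and 0 lower at the limits. The highest adipocyte sum was in replicate 1 labelled *Thy-Tet1*-/-, the highest *Sox10* in replicate 2. *Gfra1* had r = 0.81 with the score of the 3 parathyroid genes, led by *Pth*. Nerve runs beside vessels in fat around the gland, and whether such tissue came with the glands was not tested.

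The summed levels of the remaining lists overlapped between the labels, with the exception of the cartilage list. The 10 skeletal muscle genes, led by *Myh4*, summed to 943 to 7528 and to 19.1 to 8357 CPM. The 10 thymocyte and T cell genes, led by *Lck*, summed to at most 163 and 662 CPM. The 9 fibroblast genes, led by *Dcn*, summed to 953 to 1242 and 1068 to 1295 CPM. Of these 9 genes, 2 were higher and 0 lower at the limits, and 3 were higher and 1 lower without overlap. The 5 genes of smooth muscle and pericytes, led by *Rgs5*, summed to 304 to 499 and 238 to 356 CPM, and those of melanocytes, led by *Pmel*, to 1.44 to 2.49 and 1.07 to 1.69 CPM. The 8 cartilage genes, led by *Col9a1*, summed to 12.9 to 21.5 and 23.9 to 34.0 CPM, without overlap and with 1 of 4 tested genes higher. In that list *Col2a1* had at most 0.102 and *Acan* at most 1.32 CPM, and *Matn1* and *Snorc* were at 0 in all 6 libraries. *Col9a1* and *Col11a2* were higher without overlap, while *Hapln1* had a log2 fold change of -0.96 ± 0.47 (SE). The sum is thus that of a few genes, and whether cartilage came with the glands was not tested. *Pecam1* led the endothelial and *Mog* the oligodendrocyte list. The 2 libraries with the most thymocyte RNA were *Thy-Tet1*+/+ replicate 1 and replicate 3 labelled *Thy-Tet1*-/-, and without both *Sox10* had a log2 fold change of 1.42, *Mbp* of -0.97 and *Ednrb* of -0.78, all inside the limits, while *Artn* (0.53) and *Nrg1* (0.49) were outside them. With the muscle score as a covariate *Mbp* had -0.96 and *Ednrb* -0.72, both inside the limits, while *Artn* (0.70) and *Nrg1* (0.53) were outside them.

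**Figure D4:**
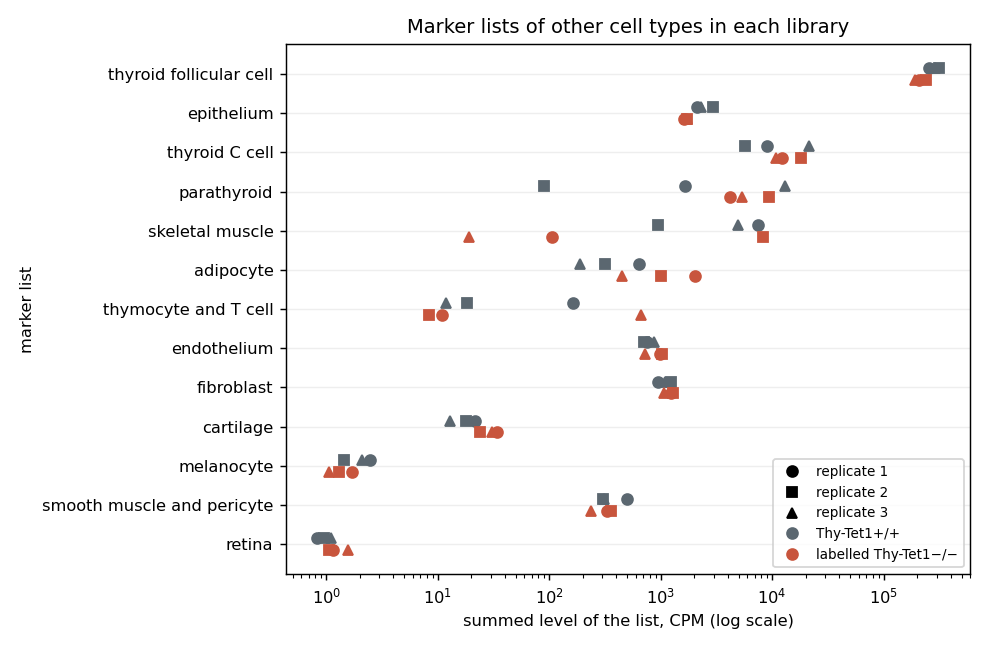
Summed level of 13 marker lists of other cell types in each library, in CPM on a log axis, with grey for *Thy-Tet1*+/+ and red for the libraries labelled *Thy-Tet1*-/-, the oligodendrocyte list at 0 in 5 libraries being left out. Muscle, parathyroid and thymocyte RNA span the widest ranges between glands, and the epithelial sum and the follicular sum, of which *Tg* makes 99.0% to 99.2%, are lower in red without overlap.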

How the data were processed

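RNA was extracted with Trizol and poly(A)-selected libraries were made with a directional NEBNext kit, per the labels. The authors deposited counts of reads per gene as whole numbers, not normalized, and the submitters' processing notes name mm10. The aligner, the counting program and the annotation are not given in the sources used here, nor whether counting used strand. The table had 0 columns of values that were not used. Of the symbols, 27 read as dates and got their names back by NCBI gene identifier, and 2 list genes were matched by these identifiers.

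Tests were run with edgeR 4.0.16 under R 4.3.3 (filterByExpr, TMM factors of 0.925 to 1.11, glmQLFit and glmQLFTest), with Benjamini-Hochberg adjustment over all 14143 tested genes and a biological coefficient of variation of 0.327. CPM values used the TMM-scaled totals, CPM per kilobase the exon union of GENCODE M21, and correlations log2 CPM with a prior count of 2. Exact permutation tests used log2(CPM + 1). Total counts were 8867683 to 19950898 per library, and intervals and floors cover counting error only. Replicates differed by far more than sampling noise (chi-square per degree of freedom of 40.3 to 92.6), so none was counted as a repeat of another. The labels call them separate mice, and p-values measure the spread between these 3 and 3 mice. *Thy-Tet1*+/+ and *Thy-Tet1*-/- are the labels' control and treatment groups.

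The members and lists were chosen with earlier results of these data known. The text names the 7 genes, the other genes of the nerve list at the limits, the 2 genes of each role and the gene of each other list with the highest mean CPM, *Tet1*, and the 3 genes most alike to each of the 7. Other genes named for their role or their level (*Foxd3*, *Ednra*, *Gdnf*, *Chat*, *Th*, *Dbh*, *Cldn19*, *Pou3f1*, *Pmp2*, *Nefm*, *Adgrg6*, *Dhh*), and the cartilage genes named besides *Col9a1*, were chosen after their values were seen. Some genes that this rule names are not reported here, and counts over lists include them. Alternatives were RLE size factors, scaling to 10 epithelial genes, DESeq2 1.42.0 (Wald test), voom of limma 3.58.1, keeping all genes with a count, keeping those with 10 counts or more in each library, the replicate number as a block, a muscle covariate and each library left out in turn. Scaling to library totals and leaving out both thymocyte-rich libraries were added after seeing the data. The code was tested on simulated data with known fold changes.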

Additional observations from a re-analysis of the deposited data

How the results depend on the processing

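Of the 16 alternatives, scaling to the 10 epithelial genes shifted the median log2 fold change of all genes to 0.44, and 97.4% of its calls were higher, against 60.2%, although 4 of those 10 genes were themselves lower at the limits. It gave 2 higher (*Sox10* and *Prx*) and 0 lower of the 7 genes, 10 higher and 1 lower of the nerve list, and 3238 higher, 87 lower and 0 adjusted calls over all genes. *Pmp22* turned to 0.07 and *S100b* to 0.31, and *Mbp* (-0.50), *Ednrb* (-0.44) and *Gjb1* (-0.36) left the limits. Scaling to library totals, with a median of 0.19 and 86.0% of calls higher, turned *S100b* to 0.05 and gave 1470 higher, 239 lower and 8 adjusted calls. *Sox10* made 1 higher gene of the 7 under that scaling, RLE size factors, at least 10 counts in every library, the muscle covariate, and without both thymocyte-rich libraries.

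DESeq2 gave 2 adjusted calls among the 7 genes, 5 in the nerve list and 1210 over all genes. At least 10 counts in every library gave 25 adjusted calls over all genes, and the muscle covariate and leaving out both thymocyte-rich libraries gave 0, with 1565 and 2708 genes at an unadjusted p under 0.05. limma-voom gave 3 higher genes of the nerve list. The replicate block gave 3 higher genes of the nerve list and 0 adjusted calls over all genes, with 1900 at an unadjusted p under 0.05 in edgeR. Same-numbered libraries deviated from their group means with r of -0.17, -0.37 and -0.19. These values cannot show whether same-numbered mice shared a litter or a day. The block changed no call among the 7 genes.

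With each library left out in turn, the 7 genes had 0 to 1 higher, 2 to 3 lower and 0 adjusted calls, the nerve list 2 to 6 higher, 4 to 5 lower and 0 adjusted, and all genes 570 to 859 higher, 504 to 687 lower and 0 to 1 adjusted. The shallowest library and the few counts of *Sox10* and *Gfra1* limit what can be told of these 2 genes.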
